A study of Mus musculus with 4 samples.

Results

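The genes described here are the chemokines, the interleukins and their receptors: all genes whose mouse symbol starts with Ccl, Cxcl, Ccr or Cxcr, or with Il followed by a digit. Il25 and Il7r were excluded by this rule and the antisense RNA Il1bos was left out, which gave 135 genes in 142 table rows, of 31053 rows in all. The additional 7 rows are copies of Ccl19, Ccl21a, Ccl21b, Ccl27 or Il11ra2 that share a symbol with another row. Il4i1 is included by its symbol although it encodes an amino acid oxidase and no cytokine.

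Chemokines are small secreted proteins that attract leukocytes along a gradient through G protein-coupled receptors, and CC and CXC chemokines are named for the spacing of their first cysteines. Interleukins signal through paired receptor chains, of which one often binds the ligand and the other is shared among several cytokines. In the small intestine, epithelial cells make chemokines that hold lymphocytes in the mucosa, such as Ccl25, the ligand of Ccr9 on gut-homing T cells, and epithelial cells respond to interleukins of the IL-6, IL-13, IL-17, IL-18 and IL-22 families.

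RNA was measured at the 3′ end of transcripts in 10 libraries of sorted crypt cells and in 12 libraries of organoids. The sorted cells came from male mice in which EGFP is expressed from the Ret locus on 1 allele (RetEGFP/+, C57BL/6J background, 2 to 10 months old), so that fluorescence marks cells that express Ret, the signalling receptor of GDNF. Each library held 1000 cells, and 5 libraries of Ret-EGFP+ cells were compared with 5 of non-EGFP cells to ask what distinguishes Ret-expressing epithelial cells. The sample sheet places 2 of these libraries on plate 2, 6 on plate 3 and 2 on plate 4. The mice contributed 1 to 2 libraries of each kind but the sample sheet does not give the mouse, so n counts libraries, and p values may be too small. The organoids were grown from crypts of wild-type C57BL/6J mice of the same age range in medium that contained R-spondin 1, Noggin and EGF. GDNF together with GFRA1, its co-receptor, was added at 500 ng/mL of each or left out (control), and organoids were collected on day 4. There were 2 libraries per treatment in each of 3 experiments, 6 for each treatment in all, and the comparison asks which transcripts GDNF changes. The organoid libraries were in pools S3 and S4, unevenly over treatment within experiments. Both GDNF libraries of experiment 1 and both control libraries of experiment 3 were in pool S4, and pool was not modelled. Each experiment used organoids of 1 mouse, female in experiments 1 and 2 and male in experiment 3, so the 6 libraries per treatment come from 3 mice and sex cannot be told apart from experiment. GDNF and GFRA1 were added together, so their effects cannot be told apart. In these bulk samples fewer cells of a type and less RNA per cell cannot be told apart.

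Total counts were 1185426 to 3222485 in Ret-EGFP+, 1113006 to 4717549 in non-EGFP, 1106882 to 1983259 in control and 1042028 to 2010359 in GDNF libraries. The unit of expression is CPM, in which TMM-normalized library sizes set the scale. The enteroendocrine markers (6 genes, among them Chga and Neurod1) summed to 19697 to 27308 CPM in Ret-EGFP+ libraries and to 1018 to 3439 CPM in non-EGFP ones. The Paneth cell markers (5 genes, among them Lyz1 and Mmp7) summed to 166364 to 422968 CPM in non-EGFP and 2851 to 7055 CPM in Ret-EGFP+ libraries, and 5 of 5 were lower in Ret-EGFP+ cells. Over all genes tested in sorted cells the log2 fold change had a median of 0.105, and of 0.657 when the libraries were scaled by total counts alone, a shift that applies to every member.

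Of the 135 genes, 63 had 1 or more counts in the sorted cells and 58 in the organoids, and 59 had none in either. The interleukin receptors were the class with most genes detected, 27 of 39 in sorted cells and 22 of 39 in organoids. Of the 36 interleukins and related cytokines, 11 were detected in each table. The CC chemokines had counts for 10 of 25 genes in sorted cells and 11 of 25 in organoids, and the CXC chemokines for 4 and 8 of 12. Chemokine receptors were counted for 8 of 18 genes in sorted cells and 3 of 18 in organoids. Genes with no count in either table included the inflammatory cytokines Il1a, Il1b, Il6, Il17a and Il22, the CC chemokines Ccl3 and Ccl22, and the receptors Ccr6 and Cxcr4. A count of 0 over a group of libraries allows up to 0.253 CPM in Ret-EGFP+ cells, 0.229 CPM in non-EGFP cells, 0.303 CPM in GDNF and 0.358 CPM in control samples, from 3 counts over the group and for counting error only.

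**Figure D1:**
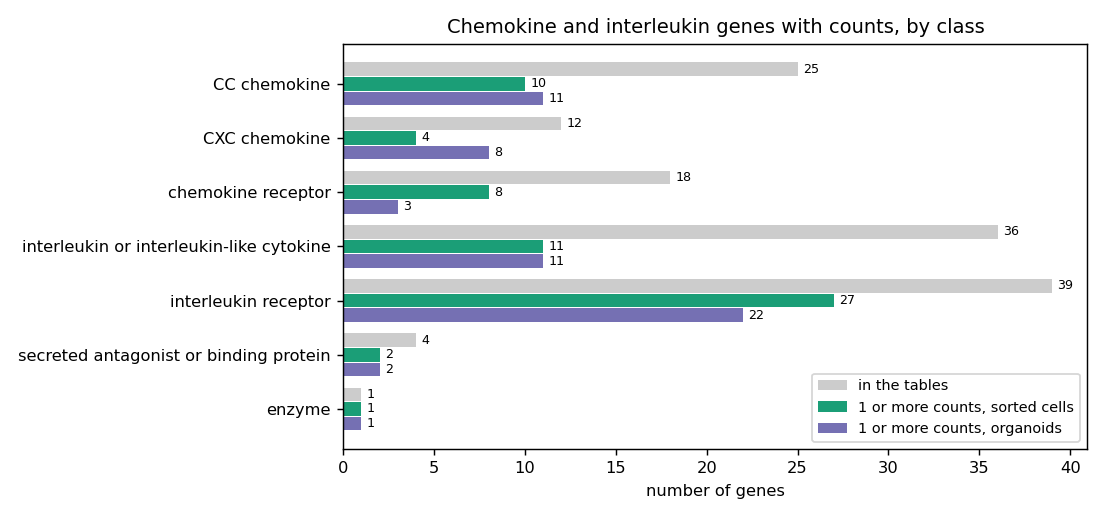
Number of genes in each class (x axis, genes) that are in the tables (grey), have 1 or more counts in the 10 sorted libraries (green) or in the 12 organoid libraries (violet). Interleukin receptors had the most genes with counts, 27 in sorted cells and 22 in organoids, while chemokine receptors had 8 and 3.

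Testing required 5 or more counts over all libraries and a normalized count averaging 1 or more, which left 38 members in sorted cells and 31 in organoids. The window from 250 bases before to 50 bases after the start site was available from RefSeq (GRCm38.p6) for 37 of the 44 members tested in either table, in 50 windows. No window was found for Ccl24, Ccl5, Cxcl16, Il10rb, Il15, Il17ra and Il27ra. NF-κB, a transcription factor that many cytokine genes respond to, binds κB sites, and the form GGGNNTTTCC was searched on both strands. It was present in 7 of the 50 windows (14.0%), those of Ccl20, Ccl9, Cxcl1, Il17rc, Il1rn and Il4ra, and in 1.63% of all 32851 windows. The STAT form TTCNNNGAA was present in 2 windows (Il17d and Il18r1), and in 8.30% of all windows. The first 4 stretches below hold the κB form (in capitals) of 3 chemokines and of the antagonist Il1rn, of which Cxcl1 had 12 counts in GDNF and 11 in control organoids and none in sorted cells, and the last pair holds both STAT forms (in capitals) of Il18r1. A match describes the letters only, and binding was not measured.
Ccl9 (chr11:83578652-83578681, minus strand, GRCm38.p6): tttgaactttGGAAAGCCCCaagtcacctt
Ccl20 (chr1:83116676-83116705, plus strand): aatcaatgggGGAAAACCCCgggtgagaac
Cxcl1 (chr5:90891164-90891193, plus strand): cctgtactccGGGAATTTCCctggcccgga
Il1rn (chr2:24345310-24345339, plus strand): ggaaatatgaGGGTTTTTCCgcttctgaca
Il18r1 distal (chr1:40465777-40465806, plus strand): tcggggttagTTCTGGGAActgtggagctc
Il18r1 proximal (chr1:40465844-40465873, plus strand): agtacaggtcTTCCCAGAActgaaagcttg
The first base of the match lies 35 bases before the start site in Ccl9, 80 in Ccl20, 71 in Cxcl1, 51 in Il1rn, and 219 and 152 in Il18r1. From another annotated start of Il1rn the same match lies 29 bases after the start. Cxcl1 holds a further κB form 89 bases before its start. In Ccl9 and Ccl20 the match is on the strand opposite to the gene.

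In sorted crypt cells the CC chemokines Ccl25, Ccl6, Ccl9 and Ccl5 were far lower in Ret-EGFP+ than in non-EGFP libraries, as were Il18 and the IL-13 receptor chain Il13ra1. The IL-6 receptor Il6ra, the IL-18 binding protein Il18bp and the IL-18 receptor Il18r1 were higher. Of 38 members tested, 7 passed as higher (18.4%) and 11 as lower (28.9%) in Ret-EGFP+ cells by edgeR's quasi-likelihood test at an adjusted p under 0.1, while among all 13672 genes tested 21.5% were higher and 21.3% lower. The remaining 20 did not pass. The groups did not overlap for 2 members that were higher and 7 that were lower, against 10.9% and 12.2% of all genes. Of these 7, Il17rb had only 2 counts in non-EGFP library 1, so its separation is within counting error. Members with few counts enter the test through the group in which they are high, so these counts describe the tested genes and not all 135.

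Ccl25, which recruits Ccr9+ lymphocytes to the small intestine (chromosome 8, 4325210 to 4360020, GRCm38), had 1328, 1628, 1269, 1348 and 1151 CPM in non-EGFP libraries 1 to 5 and 17.3, 16.7, 7.18, 13.5 and 24.9 CPM in Ret-EGFP+ libraries 1 to 5. Every non-EGFP library lay far above every Ret-EGFP+ library, and the log2 fold change was -6.37 (SE 0.27, edgeR adjusted p = 4.2e-15). Ccl6, a chemokine that attracts macrophages and other leukocytes (chromosome 11, 83587882 to 83593087), had 1150, 878, 1093, 963 and 636 CPM in non-EGFP and 4.08, 8.01, 10.1, 15.3 and 12.3 CPM in Ret-EGFP+ libraries. The groups did not overlap, and the log2 fold change was -6.57 (SE 0.30, adjusted p = 9.8e-15, edgeR). Ccl9, a ligand of Ccr1 whose gene neighbours Ccl6 (chromosome 11, 83572919 to 83578636), had 72.4, 70.2, 68.8, 61.3 and 50.1 CPM in non-EGFP libraries. In Ret-EGFP+ libraries it had 1.02, 0, 0, 1.18 and 0.274 CPM, from 6 counts in all, and the log2 fold change was -6.86 (SE 0.50, adjusted p = 4.3e-11, edgeR). Ccl6 and Ccl9 are related in sequence, so reads could be assigned between them. Markers of several cell types moved with these 3 chemokines. All 5 Paneth cell markers were lower in Ret-EGFP+ cells (log2 fold changes -4.65 for Mmp7 to -6.45 for Itln1), as were 5 of 5 goblet cell markers (-0.83 for Agr2 to -7.20 for Clca1), 4 of 4 stem cell markers (-2.24 for Lgr5 to -9.53 for Ascl2, the latter at 0 in Ret-EGFP+ cells) and 5 of 5 tuft cell markers. Of 4 enterocyte markers, 3 were lower and Sis was higher (log2 fold change 1.87, SE 0.20, mean 1171 against 320 CPM). The part of these cell types in the result was not tested.

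Ccl5, which attracts T cells and is made by cytotoxic lymphocytes, had 192, 16.7, 58.8, 29.5 and 78.1 CPM in non-EGFP and 1.36, 1.33, 0.958, 2.36 and 1.10 CPM in Ret-EGFP+ libraries. The groups did not overlap, non-EGFP library 1 was the highest, and the log2 fold change was -5.74 (SE 0.59, adjusted p = 2.2e-08, edgeR) with it and -4.96 (SE 0.55) without it. T lymphocyte markers moved with Ccl5. They summed to 352, 115, 139, 68.1 and 78.1 CPM in non-EGFP libraries 1 to 5 and to 0 to 34.7 CPM in Ret-EGFP+ libraries, where Cd8a was at 0, and 6 of 7 passed the test as lower. Their part in the Ccl5 result was not tested. In organoids Ccl5 had 2 counts in all, and the T lymphocyte markers were at 0 in every GDNF library and summed to at most 1.52 CPM in control libraries.

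Other chemokines with few counts were also lower. Ccl24, an attractant of eosinophils, had 10, 9, 0, 6 and 3 counts in non-EGFP libraries and none in Ret-EGFP+ (edgeR adjusted p = 0.018). With 3 counts over the 5 libraries taken as the floor, it was 8.45-fold lower in Ret-EGFP+ cells. Fold values against this floor include no counting error of the other group, so they are no lower limits. Cxcl13, which attracts B cells, had 13, 0, 7, 0 and 0 counts in non-EGFP and none in Ret-EGFP+ libraries. It was 6.04-fold lower against this floor (adjusted p = 0.057, edgeR). Cxcl13 was not called by DESeq2 or with plate as a covariate, and was not tested without non-EGFP library 1 or 3. Ccr9, the receptor of Ccl25, had 4, 16, 0, 0 and 0 counts in non-EGFP and none in Ret-EGFP+ libraries. It was 6.04-fold lower against this floor (adjusted p = 0.059, edgeR). The call was lost without Ret-EGFP+ library 5 (adjusted p = 0.10) and with DESeq2 or plate as a covariate. Ccr9 was not tested without non-EGFP library 2. Non-EGFP library 2 had most Ccr9 counts. It also had the highest summed level of myeloid markers, 93.1 CPM against 3.53 to 33.4 CPM in the other non-EGFP libraries. Its T lymphocyte markers summed to 115 CPM, against 352 CPM in non-EGFP library 1, which had 4 Ccr9 counts. Of 5 myeloid markers tested, 3 passed as lower in Ret-EGFP+ cells and C1qa as higher (mean 3.31 against 0 CPM). The part of these cells was not tested.

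The other direction was seen for 1 CC chemokine and 1 chemokine receptor. Ccl27a, a ligand of Ccr10 made by epithelia, had 7.47, 14.0, 11.5, 2.94 and 16.2 CPM in Ret-EGFP+ libraries, against 1.65, 3.64, 0.588, 2.27 and 8.21 CPM in the non-EGFP ones. The groups overlapped, and the log2 fold change was 1.60 (SE 0.69, adjusted p = 0.075, edgeR), a call lost when any of non-EGFP libraries 1, 3 and 4 or Ret-EGFP+ libraries 2, 3 and 5 was left out (adjusted p = 0.10 to 0.19). Its 3′ end overlaps that of Il11ra1 on the other strand, and near-identical copies of it are annotated, so its counts are uncertain. Ccr2, the monocyte receptor for Ccl2, had 8 and 5 counts in Ret-EGFP+ libraries 1 and 5 and none elsewhere. It was 4.79-fold higher against the floor of 3 counts (adjusted p = 0.078, edgeR). The call was lost when non-EGFP library 1, 2, 3 or 5 was left out (adjusted p = 0.11 to 0.13) or with plate as a covariate (adjusted p = 0.19). Ccr2 was not tested without Ret-EGFP+ library 1, without Ret-EGFP+ library 5 or without plate 4, and had no result with DESeq2 or filterByExpr. Ccl28, a mucosal ligand of Ccr10, did not pass, with 40.9 ± 12.1 CPM in the sorted Ret-EGFP+ cells against 44.9 ± 14.0 CPM in the non-EGFP cells (SD, n = 5 each, log2 fold change -0.13, SE 0.29).

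**Figure D2:**
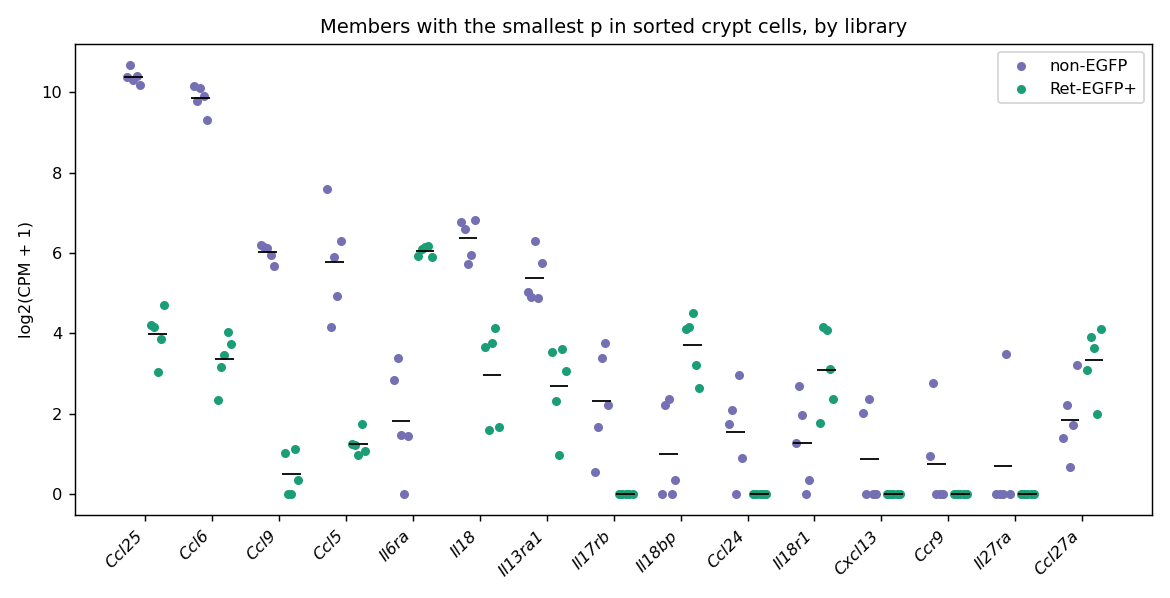
Levels of the 15 members with the smallest p in sorted crypt cells, as log2(CPM + 1) on the y axis, with a point for each library (violet non-EGFP, green Ret-EGFP+, 5 each) and a line at the mean. Ccl25, Ccl6, Ccl9, Ccl5, Il18, Il13ra1 and Il17rb were lower in every Ret-EGFP+ library than in any non-EGFP library, and Il6ra and Il18bp were higher. For Il17rb the level in non-EGFP library 1 was 0.470 CPM, from 2 counts. A count of 0 in a single Ret-EGFP+ library allows 0.823 to 2.00 CPM, so this separation is within counting error.

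Among the interleukin receptors the smallest p was that of Il6ra, the ligand-binding chain of the IL-6 receptor (chromosome 3, 89864059 to 89913196). It had 59.4, 67.4, 69.4, 71.8 and 58.4 CPM in Ret-EGFP+ libraries, against 6.11, 9.46, 1.76, 0 and 1.70 CPM in the non-EGFP ones. Every Ret-EGFP+ library was above every non-EGFP library, with a log2 fold change of 3.91 (SE 0.45, adjusted p = 1.7e-07, edgeR). Il6st, the signal-transducing chain gp130 that Il6ra needs, did not pass, with 3.06, 4.67, 0.958, 10.6 and 7.13 CPM in Ret-EGFP+ libraries, against 9.64, 1.09, 0, 4.54 and 0.849 CPM in the non-EGFP ones (log2 fold change 0.68, SE 0.92). Il11ra1, which also signals through gp130, did not pass either (log2 fold change 0.77, SE 0.73).

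The IL-18 genes differed in both directions. Il18, the cytokine itself (chromosome 9, 50554827 to 50581840), had 109, 96.4, 51.7, 61.3 and 111 CPM in non-EGFP and 11.5, 2.00, 12.5, 16.5 and 2.19 CPM in Ret-EGFP+ libraries. The groups did not overlap, and the log2 fold change was -3.29 (SE 0.43, adjusted p = 1.2e-06, edgeR). Il18bp, a secreted protein that binds IL-18 and keeps it from its receptor, had 16.3, 16.7, 21.6, 8.24 and 5.21 CPM in Ret-EGFP+ libraries, against 0, 3.64, 4.12, 0 and 0.283 CPM in the non-EGFP ones, again without overlap (log2 fold change 3.05, SE 0.84, adjusted p = 0.0065, edgeR). The 3′ end of Il18bp overlaps that of Numa1 on the other strand. Numa1 itself did not pass, with 130 counts summed over the Ret-EGFP+ libraries and 132 over the others. Il18r1, the ligand-binding receptor chain, had 2.38, 16.7, 15.8, 7.65 and 4.11 CPM in Ret-EGFP+ libraries, against 1.41, 5.46, 2.94, 0 and 0.283 CPM in the non-EGFP ones, with overlap (log2 fold change 2.10, SE 0.84, adjusted p = 0.055, edgeR). Its call was lost without non-EGFP library 5 and without Ret-EGFP+ library 2 or 3 (adjusted p = 0.11 to 0.14) or without plate 4 (adjusted p = 0.11). The second receptor chain Il18rap did not pass, with 7 counts over the Ret-EGFP+ libraries and 1 over the others.

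Of the IL-17 receptor chains, Il17rb, which with Il17ra forms the receptor of IL-25, was lower and Il17re, the chain that binds IL-17C, was higher in Ret-EGFP+ cells. Il17rb had 2, 6, 16, 11 and 13 counts in non-EGFP libraries and none in Ret-EGFP+, and the 2 counts of non-EGFP library 1 lie under the floor. It was 14.5-fold lower against the floor of 3 counts (adjusted p = 0.0021, edgeR). The 3′ end of Il17rb lies within Actr8 on the other strand, so reads of both cannot be told apart if strand was not used. Tuft cell markers, which summed to 335 to 1066 CPM in non-EGFP and 3.35 to 10.4 CPM in Ret-EGFP+ libraries with Pou2f3 at 0 in the latter, moved with Il17rb, and their part in the result was not tested. Il17re had 7.13, 22.7, 15.8, 16.5 and 10.1 CPM in Ret-EGFP+ libraries, against 6.58, 13.1, 0.588, 0 and 1.42 CPM in the non-EGFP ones. The groups overlapped, and the log2 fold change was 1.61 (SE 0.70, adjusted p = 0.077, edgeR). The call was lost without non-EGFP library 3, 4 or 5 and without Ret-EGFP+ library 2, 3 or 4 (adjusted p = 0.11 to 0.16) or plate 4 (adjusted p = 0.17), and without non-EGFP library 2 the log2 fold change was 2.53. Il17ra, the shared chain, had 6.89 ± 3.63 CPM in Ret-EGFP+ libraries against 2.67 ± 3.23 CPM in non-EGFP ones (SD, n = 5 each) and did not pass (adjusted p = 0.19, edgeR). Il17ra passed without non-EGFP library 4 (adjusted p = 0.055, edgeR) and with scaling by total counts alone (log2 fold change 2.03, adjusted p = 0.062, edgeR). Il17rc had 7.41 ± 5.63 and 12.9 ± 6.19 CPM and did not pass.

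Il13ra1, a chain of the receptor for IL-4 and IL-13, had 31.5, 28.7, 77.6, 28.4 and 52.9 CPM in non-EGFP and 10.5, 4.01, 0.958, 11.2 and 7.40 CPM in Ret-EGFP+ libraries. The groups did not overlap, and the log2 fold change was -2.66 (SE 0.46, adjusted p = 6.8e-05, edgeR). Il4ra, its partner chain, did not pass (log2 fold change 0.06, SE 1.07). Il27ra had 9 counts, all in non-EGFP library 4, so its call rests on 1 library. It was 2.72-fold lower against the floor of 3 counts (adjusted p = 0.069, edgeR). Il27ra was also not called without Ret-EGFP+ library 1, 3 or 5, with DESeq2, with plate as a covariate or without plate 4 (adjusted p = 0.10 to 0.20). The 3′ end of Il27ra lies within Palm3 on the other strand, so reads of both cannot be told apart if strand was not used. Il3ra, the IL-3 binding chain, had 4, 0, 7, 0 and 6 counts in Ret-EGFP+ and 1 count in non-EGFP libraries, a ratio of 18.8 (exact 95% counting interval 2.94 to 785, adjusted p = 0.097, edgeR). Il3ra lost its call in 6 of the fits that left out 1 library, those without non-EGFP library 2, 3, 4 or 5 and those without Ret-EGFP+ library 1 or 5, and also with DESeq2, no filter on low counts, plate as a covariate or plate 4 left out (adjusted p = 0.11 to 0.24). Il10rb, the chain shared by the receptors of IL-10 and IL-22, had 46.1 ± 13.0 CPM in Ret-EGFP+ libraries against 38.4 ± 5.82 CPM in non-EGFP ones (SD, n = 5 each) and did not pass (log2 fold change 0.25, SE 0.27), although scaling by total counts alone gave 0.82 and a call. Il2rg, the common gamma chain, had 7.94 ± 5.37 and 5.02 ± 5.67 CPM, and Il15ra, the IL-15 presenting chain, 5.09 ± 2.701 and 3.46 ± 2.80 CPM, and neither passed. The 3′ end of Il2rg lies within the annotated gene Gm20489 on the same strand, so its counts are uncertain.

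Downstream of these receptors, 36 of 38 listed genes of JAK-STAT, SOCS, IL-1/IL-17 and NF-κB signalling were tested in sorted cells, of which 5 were higher and 5 lower (13.9% each), below the 21.5% and 21.3% over all genes, with a median log2 fold change of -0.09. The kinase Jak2 was higher (log2 fold change 2.29, SE 0.50, mean 25.7 against 4.81 CPM). So were the feedback inhibitor Socs5 (3.02, SE 0.97), the IL-17 receptor adaptor Traf3ip2 (1.42, SE 0.46) and Nfkb1 (1.56, SE 0.40). Socs3, a further feedback inhibitor, was also higher (3.62, SE 1.38), with a mean of 3.13 against 0.170 CPM, the latter near the floor. Relb, an NF-κB subunit (-2.16, SE 0.53), and Ptpn6, a phosphatase that limits cytokine signalling (-1.84, SE 0.46), were lower. Stat6, the factor activated by IL-4 and IL-13, was lower as well (-0.90, SE 0.36). Stat4 (mean 0 against 1.55 CPM) and Tnfaip3 (mean 0.068 against 1.43 CPM) passed as lower at levels near the floor (edgeR adjusted p = 0.069 and 0.086). A further list of 15 genes held other chemokines, atypical chemokine receptors and CMTM family genes, which encode membrane proteins and no chemokines. Of these 8 were tested. The atypical receptors Ackr1 (mean 0 against 1.73 CPM) and Ackr4 (0 against 0.897 CPM) were lower (edgeR adjusted p = 0.065 and 0.079). So were the CMTM genes Cmtm7 (0.408 against 3.55 CPM) and Cmtm8 (0.0548 against 3.14 CPM), with adjusted p = 0.098 and 0.023 (edgeR). Cmtm3 was higher (7.11 against 0.553 CPM, adjusted p = 0.0099, edgeR).

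In organoids the interleukin-1 receptor antagonist Il1rn and the chemokine Cxcl16 were higher with GDNF, and no other member passed. These 2 of 31 members tested (6.45%) were both higher, while 0.532% of all 12220 genes tested were higher and 0.139% lower (edgeR, experiment as a block, adjusted p under 0.1). The members had a median log2 fold change of 0.07 against 0.002 over all genes. An unadjusted p under 0.05 was reached by 4 of the 31 members and by 6.9% of all genes. Some cell type markers were also higher with GDNF, namely 3 of 5 goblet cell markers (Muc2 0.57, Clca1 0.75 and Agr2 0.37 on the log2 scale), 3 of 4 stem cell markers (Lgr5 0.52, Olfm4 0.49 and Smoc2 0.47) and 2 of 5 Paneth cell markers (Lyz1 0.30 and Mmp7 0.53). None of the 6 enteroendocrine markers passed (median log2 fold change -0.09), nor did any of 4 enterocyte and 3 tuft cell markers tested. The part of these cell types in the result was not tested.

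Il1rn, a secreted protein that occupies the IL-1 receptor without signalling (chromosome 2, 24336853 to 24351494), had 0.843 to 7.66 CPM in control (median 1.99) and 4.57 to 19.0 CPM in GDNF organoids (median 9.55). The counts were 1 and 2 in control and 11 and 8 in GDNF libraries of experiment 1, 4 and 10 against 7 and 30 in experiment 2, and 1 and 11 against 30 and 24 in experiment 3. The groups overlapped over the 12 libraries, but within experiments 1 and 3 each GDNF library was above each control library. The log2 fold change was 1.64 (SE 0.36, adjusted p = 0.012, edgeR), and 2.44 (SE 0.86), 1.32 (SE 0.57) and 1.64 (SE 0.56) within experiments 1, 2 and 3. Without GDNF library 2 of experiment 2 it was 1.44 (adjusted p = 0.17), and without experiment 3 it was 1.65 (adjusted p = 0.16), so the call but not the direction was lost. The promoter stretch of Il1rn with a κB form is printed above. In sorted cells Il1rn had too few counts to be tested.

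Cxcl16, a membrane-bound chemokine that can be shed and binds Cxcr6 on T cells (chromosome 11, 70453983 to 70459984), had 6.58 to 29.3 CPM in control (median 12.9) and 12.8 to 41 CPM in GDNF organoids (median 26.99). The counts were 16 and 13 in control and 27 and 23 in GDNF libraries of experiment 1, 14 and 14 against 14 and 61 in experiment 2, and 28 and 44 against 79 and 73 in experiment 3. The groups overlapped, and the log2 fold change was 0.79 (SE 0.22, adjusted p = 0.091, edgeR). Within experiments 1, 2 and 3 the log2 fold change was 0.61 (SE 0.42), 1.35 (SE 0.39) and 0.55 (SE 0.31). The call lay near the threshold and was lost in 8 of 12 fits that left out 1 library, with DESeq2 (adjusted p = 0.35) and without experiment 2 or 3 (adjusted p = 0.78 and 0.24). Without GDNF library 2 of experiment 2, which had the 61 counts, the log2 fold change was 0.52. The receptor Cxcr6 was not tested in organoids. In sorted cells Cxcl16 did not pass, with 16 counts over the Ret-EGFP+ libraries and 31 over the others.

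**Figure D3:**
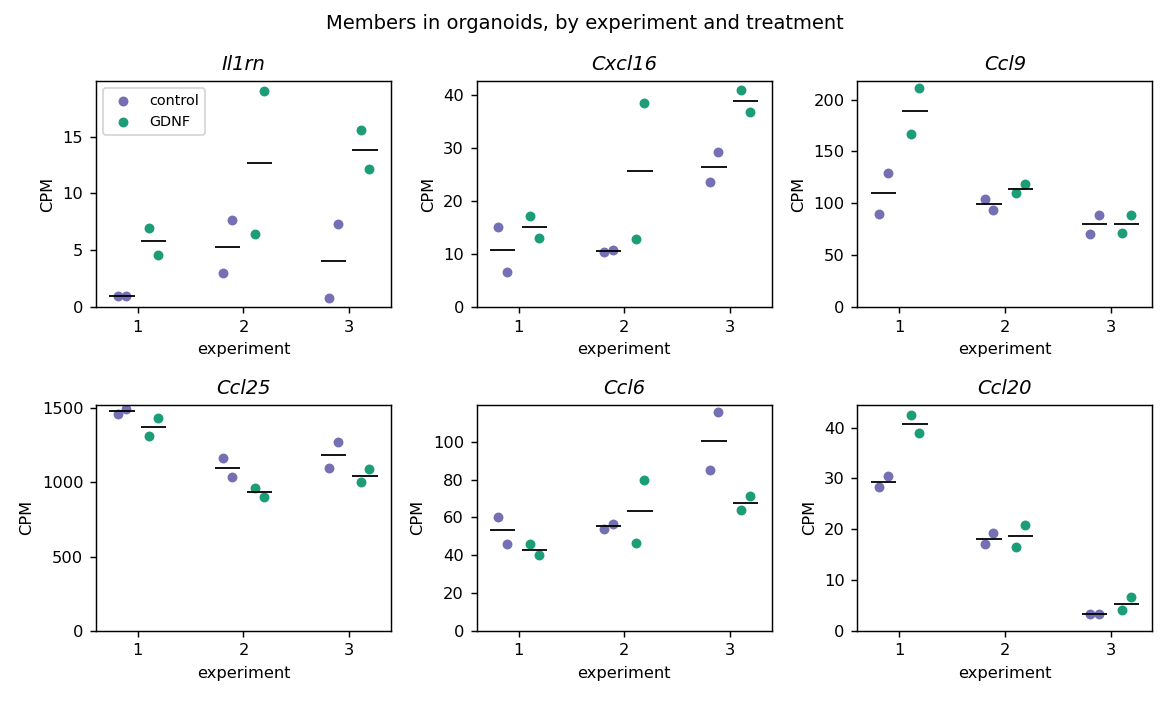
Levels of 6 members in organoids in CPM (y axis, from 0) by experiment (x axis), with a point for each library (violet control, green GDNF) and a line at the mean of the 2 libraries. Il1rn, Cxcl16 and Ccl20 have a higher mean with GDNF in each of the 3 experiments, though Ccl20 did not pass. Ccl9 has a higher mean with GDNF in experiments 1 and 2.

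Ccl9, Ccl25 and Ccl6 did not pass in organoids, and Ccl5 was not tested there. Ccl9 had 70.8 to 130 CPM in control (median 91.6) and 71.1 to 211 CPM in GDNF organoids (median 114), with a log2 fold change of 0.34 (SE 0.12, adjusted p = 0.40, edgeR). It was 0.76 (SE 0.18) within experiment 1, 0.21 (SE 0.19) within experiment 2 and -0.01 (SE 0.20) within experiment 3, and without experiment 1 it was 0.10. Ccl25 had 1034 to 1493 CPM in control and 902 to 1431 CPM in GDNF organoids (log2 fold change -0.17, SE 0.08, adjusted p = 0.64, edgeR). Ccl6 had 46.1 to 116 CPM in control and 40.01 to 79.7 CPM in GDNF organoids (log2 fold change -0.24, SE 0.14, adjusted p = 0.78, edgeR).

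Ccl20, which attracts Ccr6+ lymphocytes and dendritic cells, had 28.4 and 30.4 CPM in control and 42.6 and 38.9 CPM in GDNF libraries of experiment 1, 17.1 and 19.2 against 16.4 and 20.9 CPM in experiment 2, and 3.37 and 3.33 against 4.15 and 6.56 CPM in experiment 3. Its level differed more between experiments than between treatments, and it did not pass (log2 fold change 0.35, SE 0.20). Il18 had 50.5 to 130 CPM in control and 64.0 to 84.0 CPM in GDNF organoids (log2 fold change -0.23, SE 0.13). Among the receptors, Il10rb (63.0 ± 9.09 CPM with GDNF and 63.8 ± 5.77 CPM in control, SD, n = 6 each), Il17rc (39.3 ± 18.2 and 39.2 ± 22.6 CPM) and Il13ra1 (33.9 ± 8.87 and 36.97 ± 11.3 CPM) did not pass. Il6ra, which separated the sorted cells, had 12 counts in GDNF and 12 in control organoids. None of 36 signalling genes tested passed in organoids.

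The GDNF effect differed between experiments for none of the 31 members by the edgeR interaction test, in which 0.0491% of all genes passed. By the unadjusted p under 0.05 there were 4 such members of 31, while 5.08% of all genes reached it. With DESeq2 there were none at the adjusted threshold and 3 at the unadjusted one. The smallest p was that of Il18 (0.0029, adjusted p = 0.70), whose log2 fold change was -0.30, 0.39 and -0.64 within experiments 1, 2 and 3.

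**Figure D4:**
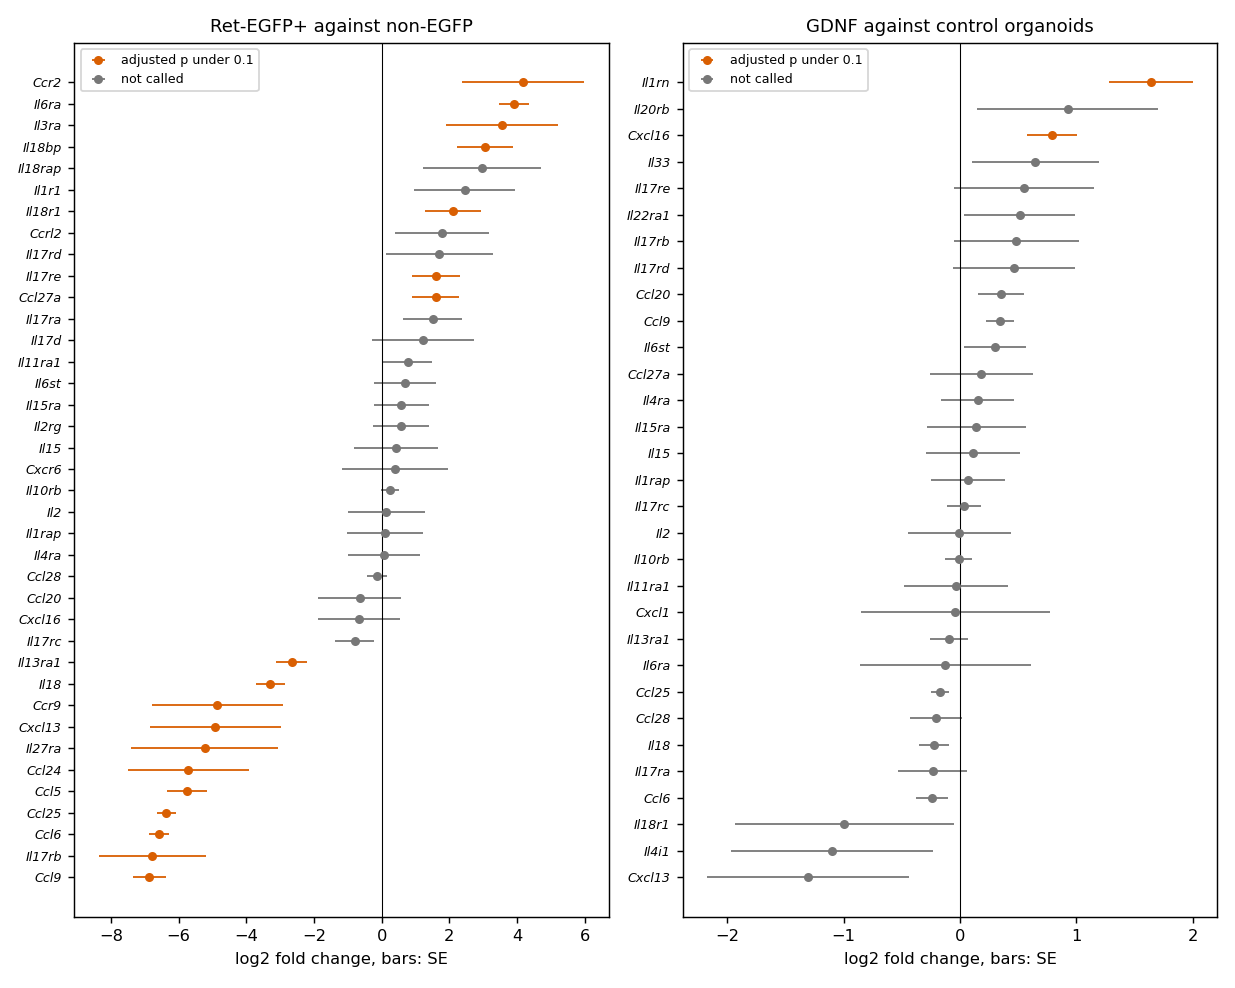
Log2 fold changes (points) with SE (bars) of all members tested in sorted cells (left, Ret-EGFP+ against non-EGFP, 38 genes) and in organoids (right, GDNF against control, 31 genes), each in order of size and in orange where the adjusted p was under 0.1. Fitted values of Il17rb, Ccl24, Cxcl13, Ccr9, Il27ra and Ccr2 rest on a group with 0 counts and are no measure of size.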

How the data were processed

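RNA of 10 sorted and 12 organoid libraries was sequenced at the 3′ end. Per the submitters' notes and the methods, alignment to GRCm38 used STAR 2.7.8a, and the authors deposited raw whole-number counts per Ensembl gene, and whether counting used strand is not given in the sources used here. Symbols and positions came from GENCODE annotation of the same build, and conditions from the deposited sample sheets. Members and lists were chosen with earlier results of these data known.

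Counts were tested with edgeR 4.0.16 in R 4.3.3 (TMM, quasi-likelihood test, Benjamini-Hochberg over all genes tested), on sorted cells without a covariate and on organoids with experiment as a block. SEs were derived from the F statistic (fold change on the log2 scale, unsigned, over root F). A group with 0 counts was set to a floor of 3 counts. Fold values against this floor include no counting error of the other group. The 95% intervals cover counting error only. Named with each value were Ccl25, Ccl6, Ccl9 and the called members by p up to 15 per comparison, and with a fold change the other called members and the 8 most abundant uncalled ones. Further members of the same receptors and lists were chosen after their values were seen. Alternatives were DESeq2 1.42.0, its size factors, total counts alone, filterByExpr, no filter, a threshold of 0.05, plate as a covariate, no block, sums per experiment, and leaving out each library, plate 4 or each experiment. Whether replicates are separate cultures is not given, so p values measure the spread between these libraries.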

Additional observations from a re-analysis of the deposited data

Results flagged for a closer look

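In 35 groups of 5 or 6 libraries, 3 libraries stood far from the rest of their group by Dixon's criterion. Chance alone meets it in about 1 of 20 groups of normally distributed values. That rate does not apply to Ccr9 and Il27ra, where most libraries had no count, so the number flagged is descriptive only. Ccl5 had 2.36 CPM in Ret-EGFP+ library 4 against 0.958 to 1.36 CPM in the other Ret-EGFP+ libraries. Ccr9 had 5.82 CPM in non-EGFP library 2 against 0 to 0.940 CPM in the other non-EGFP libraries. Il27ra had 10.2 CPM in non-EGFP library 4 and no count in any other.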

How the results depend on the processing

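In sorted cells 18 of 38 members tested were called, and 10 at an adjusted p under 0.05. With filterByExpr 10 of 18 members tested were called, and the other called members were not tested. DESeq2 called 13 of 36 tested, total counts alone 20 of 38 and no filter 23 of 63, of which 17 were among the 18 called. Fits without 1 library called 13 to 17, plate as a covariate 13 (5 higher, 8 lower) and plate 4 left out 13 (3 higher, 10 lower). In organoids 2 members were called, and 1 with DESeq2, 1 with its size factors in edgeR, 1 with filterByExpr, 1 at 0.05 and 1 without experiment 2. Without experiment 3 there were 0, and fits without 1 library gave 0 to 2. Without experiment as the block 0 members were called (2 had an unadjusted p under 0.05), and with libraries summed per experiment and the block 2 were.

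Calls of Ccl25, Ccl6, Ccl9, Ccl5, Il6ra, Il18, Il13ra1, Il17rb, Il18bp and Ccl24 in sorted cells held in every alternative in which they were tested. The direction turned for uncalled members near 0. In sorted cells Ccl28 (-0.13) was 0.45 with total counts alone, 0.013 without Ret-EGFP+ library 1 and 0.12 without non-EGFP library 3. In organoids Il18 (-0.23) was 0.011 without experiment 3. Il10rb (-0.01) was 0.0071 with total counts alone, 0.094 without experiment 2, 0.00028 with libraries summed and the block, and 0.0035, 0.010, 0.019, 0.0078, 0.0078 and 0.045 in 6 fits without 1 library. Il17rc (0.03) was -0.020 without experiment 2 and -0.056, -0.0054 and -0.0022 in 3 fits without 1 library, and Il13ra1 (-0.10) was 0.011 in 1 such fit. The causes were not tested. Members with under about 20 counts are limited by depth.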
